A study of Danio rerio with 9 samples.

Results

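Among the 813 long intergenic noncoding RNAs (lincRNAs) that were listed as expressed in zebrafish heart, 423 matched no transcript of Ensembl release 79 or of the zflncRNApedia database. The 70 lincRNAs described here are those of the 423 with 3 or more exons on chromosomes 1 to 25 other than chromosome 4. There were 98 unannotated lincRNAs with 3 or more exons before this restriction, of which 21 lay on unplaced sequences and 7 on chromosome 4. Expression was taken from RNA-seq of adult hearts (age 6 months), embryonic hearts (age 4 days), and muscle of adult fish, with 3 samples of each tissue type. All fish were wild type, of the WIK strain by the study's methods, and the labels name no treatment or transgene for any group. The study's methods call these biological samples, but neither the labels nor the methods say how many fish went into a sample. The p-values below thus measure only the spread between these samples, and how much of it is technical is not known. The tissues were extracted whole, and in such samples fewer cells of a type and less RNA per cell cannot be told apart. The values carry transcript identifiers without gene names, so that markers of heart, muscle, or other cell types were not analysed here.

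LincRNAs are transcribed from stretches between protein-coding genes, are spliced and polyadenylated much like messenger RNAs, and are not known to encode a protein. Zebrafish lincRNAs are typically present at low levels and restricted to few tissues, and some lincRNAs studied in mouse heart act in the nucleus on the transcription of cardiac genes. None of the 70 carries a gene name or a described function in the lists used here. They are therefore ordered below by the tissue type in which they were high, and each is given by its identifier in the assembled transcriptome with its position on the Zv9 genome build.

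The membership of the heart lists, and thus of the 70, rests in part on the expression values themselves. In each heart, the listed members were those with more than 0.1 FPKM, a number of sequenced fragments scaled by transcript length and library size, in at least 2 of the 3 samples, and a member was listed as cardiac-specific where fewer than 2 muscle samples passed 0.1 FPKM. This held for all 70. By this listing, 37 members were on the adult heart list alone, 6 on the embryonic heart list alone, and 27 on both, and 24 of the 70 were listed as cardiac-specific. A comparison between tissue types is thus not independent of how the members came to be listed, and what the listing fixed is given as a description. Just inside the lower limit of exon number, the 45 members with 3 exons had a median highest tissue mean of 0.86 FPKM, and just outside it the 325 unannotated cardiac lincRNAs with 2 exons had 1.18 FPKM. Those with 2 exons were not restricted by chromosome.

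The members were short transcripts spread over long loci. Of the 70, 45 had 3 exons, 12 had 4, 6 had 5, 3 had 6, and 4 had 7. The spliced lengths ran between 239 nt for TCONS_00021305 and 7236 nt for TCONS_00062301, with a median of 906.5 nt. The next shortest was TCONS_00027738 at 336 nt and the next longest TCONS_00071084 at 6265 nt. The genomic spans ran between 1078 bp for TCONS_00021305 and 249006 bp for TCONS_00022864, with a median of 5537 bp, and 8 members spanned more than 50000 bp. Introns made up a median of 77.0% of the span, against 78.3% in 162 annotated cardiac lincRNAs with 3 or more exons and 35.2% in the unannotated ones with 2 exons. The members lay on 23 chromosomes in 60 separate loci, of which 6 loci held 2 or more overlapping members. Chromosome 14 held the most, with 8.

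The number of reads per sample was not part of the values and was estimated from the smallest steps between low FPKM values. By this estimate, 1 fragment per kilobase of effective length was worth 0.0215 to 0.0326 FPKM in adult heart, 0.0281 to 0.0355 FPKM in embryonic heart, and 0.030 to 0.040 FPKM in adult muscle. In the tissue type where it had the most, a member had a median of 85.0 estimated fragments over the 3 samples, and 15 members had fewer than 30. These numbers cover counting error only, and fragments of overlapping transcripts were divided between them by the authors' software.

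Most members were detected in adult heart and fewer in embryonic heart, as the make-up of the lists already fixes in part. A mean above 0.1 FPKM was found for 66 of the 70 in adult heart, 41 in embryonic heart, and 49 in adult muscle. All 3 adult heart samples were above 0.1 FPKM for 52 members, all 3 embryonic heart samples for 16, and all 3 muscle samples for 34. The number of members listed at exactly 0 in a sample was 0 to 2 in adult heart, 12 to 22 in embryonic heart, and 9 to 12 in adult muscle. By mean, 30 members were above 0.1 FPKM in all 3 tissue types, 17 in adult heart and muscle without embryonic heart, 11 in adult heart alone, and 8 in both hearts without muscle. TCONS_00082245 was above this mean in no tissue type and was not tested.

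**Figure D1:**
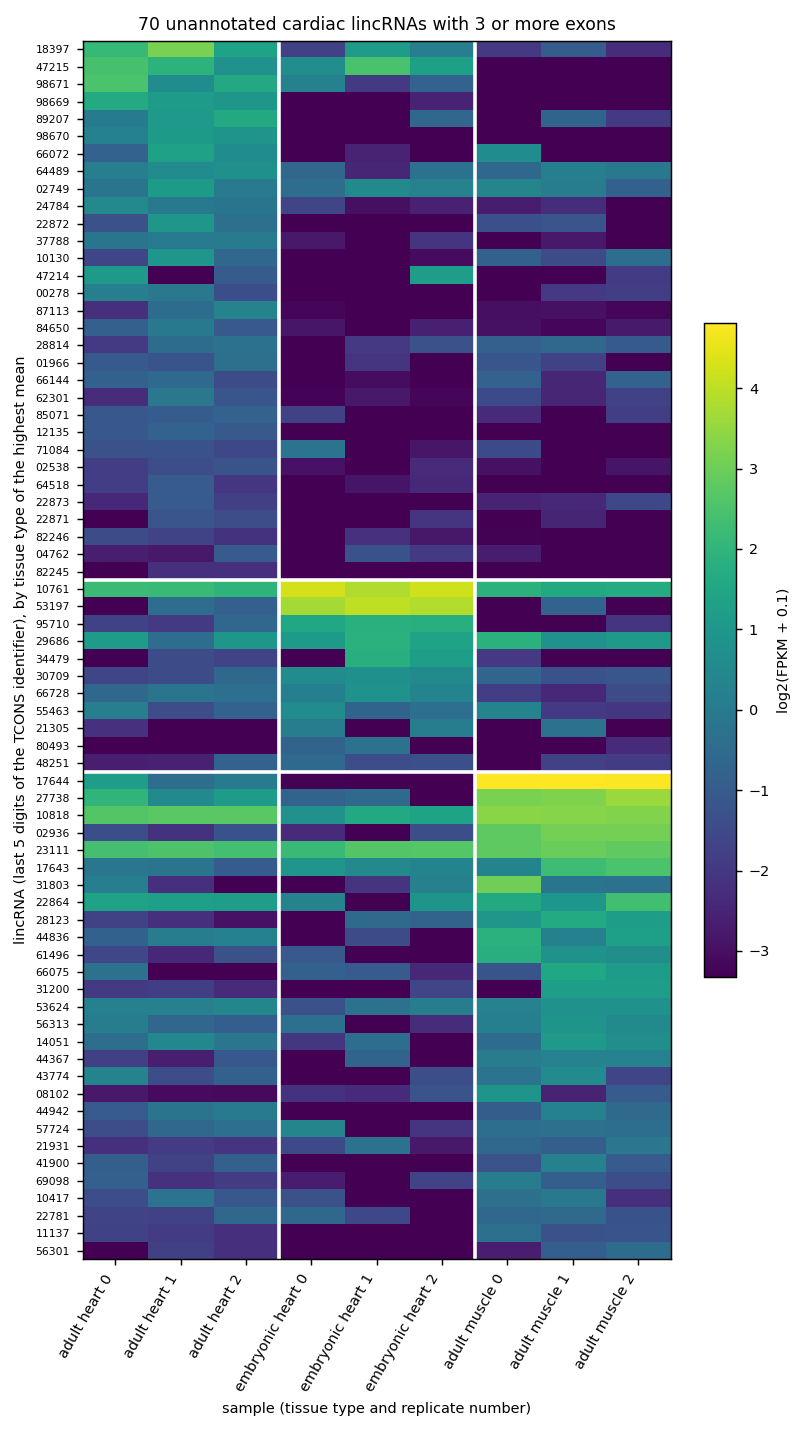
Expression of the 70 lincRNAs (rows, labelled by the last 5 digits of the identifier) in the 9 samples (columns), as log2(FPKM + 0.1) in color. Rows are grouped by the tissue type with the highest mean, which was adult heart for 31, embryonic heart for 11, and adult muscle for 28, and the embryonic heart columns hold the most values near 0.

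The levels were low and uneven. The median of the member means was 0.487 FPKM in adult heart, 0.161 FPKM in embryonic heart, and 0.420 FPKM in adult muscle. The summed FPKM of all 70 lay between 62.6 and 72.1 in the adult heart samples and between 62.5 and 71.2 in the embryonic heart samples, and between 107 and 109 in the muscle samples. The sum over all transcripts also differed between samples, at 2785615 to 3191282 FPKM in adult heart, 4493736 to 19187397 FPKM in embryonic heart, and 3139179 to 4644363 FPKM in muscle. The 3 highest members held 24.7% of the summed mean in adult heart, 54.8% in embryonic heart, and 44.2% in adult muscle. In adult heart these were TCONS_00010818, TCONS_00023111, and TCONS_00018397, in embryonic heart TCONS_00010761, TCONS_00053197, and TCONS_00023111, and in muscle TCONS_00017644, TCONS_00027738, and TCONS_00010818. The 3 highest thus held a smaller share in adult heart than in embryonic heart or muscle. This is given as a description, since the listing rested on the same values. Of the 70, 64 were on the adult heart list and 33 on the embryonic heart list.

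The first comparison, between the hearts, addressed which lincRNAs differ between the adult and the developing heart. A member was called where limma gave an adjusted p below 0.05, with Benjamini-Hochberg adjustment over 69118 transcripts, and the ratio of mean FPKM was above 2. Of the 69 members tested, 23 were higher and 4 lower in adult heart, where 12.2% and 7.23% of all transcripts tested were called in these directions. All adult heart samples lay above all embryonic heart samples for 33 members, against 24.2% of all transcripts, and below them for 7, against 15.0%. The median log2 fold change of (FPKM + 0.1) was 1.25 over the members and 0.18 over all transcripts. Of the 23 higher in adult heart, 20 were on the adult heart list alone, so that the listing had already required fewer than 2 embryonic heart samples above 0.1 FPKM. Quantile normalization moved the median of all transcripts by -0.18, and the members' median was then 0.73, with 19 members higher and 4 lower. The count of members higher in adult heart fell to 14 without adult heart replicate 1 and to 12 without adult heart replicate 2.

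The other cardiac lincRNAs, listed by the same expression rule, gave 17.9% of 162 annotated ones with 3 or more exons as higher in adult than in embryonic heart and 12.3% as lower. Of 324 unannotated ones with 2 exons that were tested, 25.3% were higher and 5.25% lower. The members had 33.3% higher and 5.80% lower. The lists differed in their make-up as well, and neither the annotated ones nor those with 2 exons were restricted by chromosome. Of the annotated ones, 131 of 162 had a mean above 0.1 FPKM in embryonic heart and 139 in adult heart, against 41 and 66 of the 70 members. These shares are given side by side and the difference between them was not tested.

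**Figure D2:**
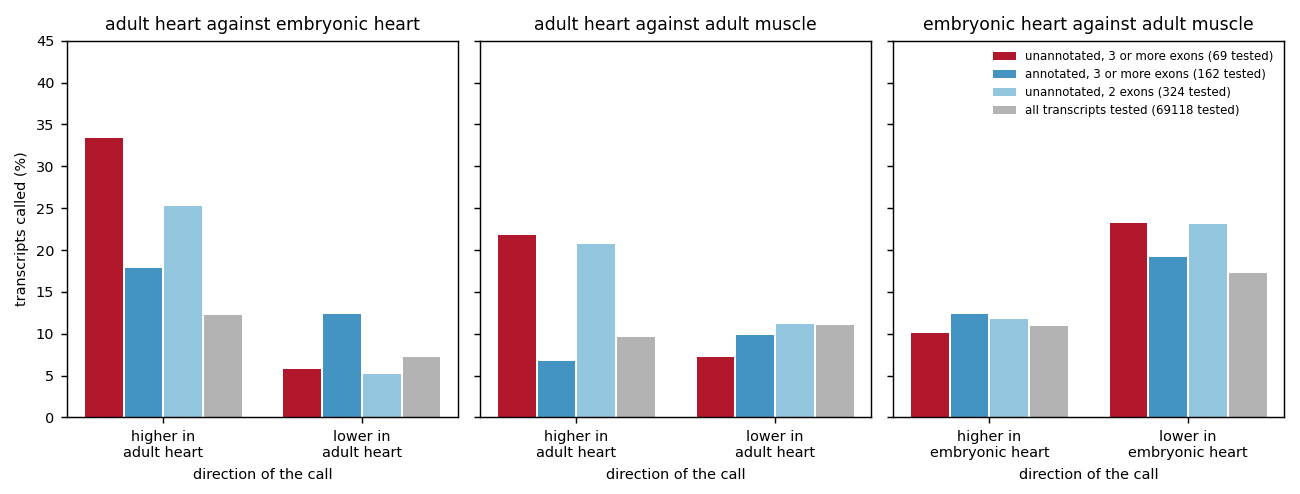
Percent of transcripts called higher or lower (y axis) in the 3 comparisons (panels), for the 69 tested members, annotated cardiac lincRNAs with 3 or more exons, unannotated cardiac lincRNAs with 2 exons, and all 69118 transcripts tested. In adult against embryonic heart, 33.3% of the members were called higher, and in adult heart against muscle 21.7%.

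Between adult heart and adult muscle, which asks which lincRNAs differ between the 2 adult striated muscles, 15 members were higher and 5 lower in adult heart, where 9.6% and 11.1% of all transcripts were called. Samples did not overlap for 19 members that were higher in adult heart, against 20.8% of all transcripts, and for 15 that were lower, against 21.7%. The median log2 fold change was 0.38 over the members and 0.00 over all transcripts. Of the 15 higher members, 12 were on the cardiac-specific list, for which low muscle values were a condition. The count of members lower in adult heart fell to 3 without adult heart replicate 1, and it was 8 when the 2 tissue types were fitted alone.

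Between embryonic heart and adult muscle, 7 members were higher and 16 lower in embryonic heart, where 10.9% and 17.3% of all transcripts were called. Samples did not overlap for 10 members that were higher, against 17.4% of all transcripts, and for 23 that were lower, against 26.1%. The median log2 fold change was -0.98 over the members and -0.13 over all transcripts. Of the 16 lower members, 11 were on the adult heart list alone. For these, the listing had already required fewer than 2 embryonic heart samples above 0.1 FPKM. Quantile normalization moved the median of all transcripts by 0.21, and the members' median was then -0.56. Over the 3 comparisons, which share samples, 40 members were called at least once and 30 in none, where 39.2% of all transcripts tested were called at least once and 60.8% in none. The 30 include TCONS_00082245, which was not tested.

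**Figure D3:**
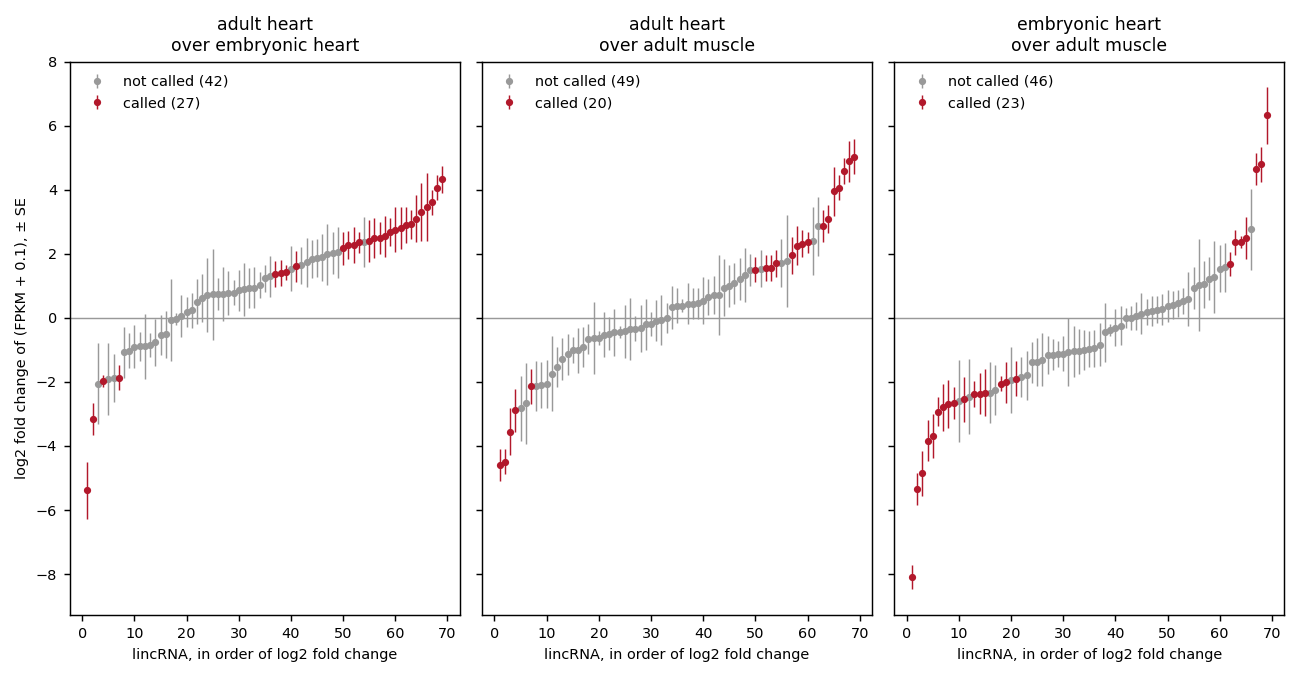
Log2 fold change of (FPKM + 0.1) with its SE for the 69 tested members, in order of size, in adult heart over embryonic heart, adult heart over adult muscle, and embryonic heart over adult muscle. Called members (red) numbered 27, 20, and 23 in the 3 panels, and the largest absolute difference was TCONS_00017644 in embryonic heart over adult muscle, at -8.09.

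Higher in adult heart than in both other tissue types were 10 members, where 4.35% of all transcripts tested were called so. All but TCONS_00098671 were on the adult heart list alone, and all but TCONS_00100278 were on the cardiac-specific list. Low values in embryonic heart or muscle were thus conditions of their listing. Of the 10, 3 came from 1 locus on chromosome 8. TCONS_00098669 (chr8:50731535-50737775), TCONS_00098670 (chr8:50731535-50737791), and TCONS_00098671 (chr8:50732229-50737775) overlap, and each has 7 exons. TCONS_00098669 had 3.06, 2.14, and 1.88 FPKM in adult heart replicates 0, 1, and 2, values below 0.001, below 0.001, and 0.0724 FPKM in embryonic heart, and exactly 0 in each muscle sample. Adult heart samples were all above the others. Adult over embryonic heart gave a log2 fold change of 4.33 ± 0.41 (SE, n = 3 each; limma adjusted p = 0.000247), and the adjusted p against muscle was 8.37e-05. Since muscle was listed at 0, no fold is given against it.

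TCONS_00098670 had 1.09, 2.04, and 1.74 FPKM in adult heart, less than 0.001 FPKM in each embryonic heart sample, and was listed at 0 in muscle. Adult over embryonic heart gave 4.07 ± 0.39 on the log2 scale (limma adjusted p = 0.000240), which depends on the pseudocount, and the adjusted p against muscle was 0.000115. TCONS_00098671 had 5.60, 1.44, and 2.91 FPKM in adult heart, 1.08, 0.160, and 0.484 FPKM in embryonic heart, and was listed at 0 in muscle. It held most of the summed FPKM of this locus in each embryonic heart sample, and the lowest adult heart sample lay above the highest embryonic one. For TCONS_00098671, the log2 fold change of adult over embryonic heart was 2.40 ± 0.65 (limma adjusted p = 0.0298), and this call was lost without adult heart replicate 0 (0.0937), adult heart replicate 2 (0.0833), embryonic heart replicate 1 (0.0743), or embryonic heart replicate 2 (0.0608). The limma adjusted p of TCONS_00098671 was 0.000762 for adult heart against muscle and 0.0177 for embryonic heart against muscle, the second of which became 0.0529 without embryonic heart replicate 0 and 0.246 with a pseudocount of 1.

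TCONS_00037788 (chr18:4814555-4820174, 3 exons) had 0.802, 0.901, and 0.898 FPKM in adult heart, 0.0471, 0, and 0.132 FPKM in embryonic heart, and 0, 0.0465, and 0 FPKM in muscle. The lowest adult heart sample exceeded every sample of the other tissue types. Adult heart had a log2 fold change of 2.68 ± 0.44 over embryonic heart (limma adjusted p = 0.00346) and 3.09 ± 0.44 over muscle (limma adjusted p = 0.00118).

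The remaining members of this pattern were named after their values were seen, except TCONS_00087113. TCONS_00012135 (chr11:40573838-40603249, 3 exons) had 0.377, 0.487, and 0.384 FPKM in adult heart, less than 0.001 FPKM in each embryonic heart sample, and 0 in each muscle sample. It overlaps TCONS_00012136, a cardiac lincRNA outside the 70 that had 0.502, 0.740, and 0.613 FPKM in adult heart, 0.380, 0, and 0.0794 FPKM in embryonic heart, and 0 in muscle, and the part of the division of fragments between them in the low embryonic values of TCONS_00012135 was not tested. Over embryonic heart its log2 fold change was 2.36 ± 0.32 (limma adjusted p = 0.00138), with an adjusted p of 0.000906 against muscle. TCONS_00024784 (chr15:12908388-12912836) had 1.32, 0.873, and 0.802 FPKM in adult heart, 0.225, 0.0267, and 0.0672 FPKM in embryonic heart, and 0.0521, 0.109, and 0 FPKM in muscle. TCONS_00084650 (chr5:60505068-60511524) had 0.459, 0.873, and 0.384 FPKM in adult heart, at most 0.0658 FPKM in embryonic heart, and at most 0.0491 FPKM in muscle. The adult heart samples of both stood apart from all the others. For TCONS_00024784, the log2 fold change was 2.5 ± 0.51 over embryonic heart (limma adjusted p = 0.00942) and 2.87 ± 0.51 over muscle (0.00387), the first of which was lost with a pseudocount of 0.01 (0.0547). For TCONS_00084650, it was 2.27 ± 0.43 over embryonic heart (limma adjusted p = 0.00700) and 2.32 ± 0.43 over muscle (0.00503).

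TCONS_00087113 (chr6:40478510-40482832), the other member with 7 exons, had 0.113, 0.639, and 1.15 FPKM in adult heart, at most 0.00925 FPKM in embryonic heart, and at most 0.0276 FPKM in muscle. The adult heart samples did not overlap the others but differed widely among themselves. Its limma adjusted p was 0.0207 against embryonic heart and 0.0290 against muscle, and these became 0.0669 and 0.0871 without adult heart replicate 1 and 0.0527 and 0.0763 without adult heart replicate 2. The first was also lost without embryonic heart replicate 1 (0.0526) and the second without any muscle sample (0.0694 to 0.0815). Both were lost with a pseudocount of 1, at limma adjusted p = 0.0568 and 0.0618.

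TCONS_00100278 (chr9:30696784-30702927) had 1.01, 0.858, and 0.288 FPKM in adult heart, was at 0 throughout embryonic heart, and had 0, 0.152, and 0.184 FPKM in muscle. Its limma adjusted p was 0.00823 against embryonic heart and 0.0399 against muscle, and the second was lost without any sample other than adult heart replicate 2 or adult muscle replicate 2 (0.0538 to 0.116). TCONS_00102538 (chr9:37991932-37993098) had 0.179, 0.283, and 0.332 FPKM in adult heart, at most 0.0966 FPKM in embryonic heart, and at most 0.0377 FPKM in muscle. Its limma adjusted p against embryonic heart was 0.0413, and the call was lost without any sample other than adult heart replicate 0 or embryonic heart replicate 2 (0.0527 to 0.113). Against muscle its adjusted p was 0.0238, lost without adult heart replicate 1 (0.0597), adult heart replicate 2 (0.0716), or adult muscle replicate 1 (0.0719). All 4 members with 7 exons were thus higher in adult heart than in both other tissue types, and 3 of them came from 1 locus. These 4 were all on the cardiac-specific list, and all but TCONS_00098671 were on the adult heart list alone. Their pattern was thus in part a condition of the listing, and a link with exon number was not tested.

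Among the 6 largest increases of adult over embryonic heart were also TCONS_00089207, TCONS_00066072, and TCONS_00022872, none of which held in each fit with a sample left out. All of them were on the adult heart list alone, for which low embryonic heart values were a condition. TCONS_00089207 (chr6:43121030-43133142) had 0.895, 1.95, and 2.94 FPKM in adult heart, 0, 0, and 0.538 FPKM in embryonic heart, and 0, 0.519, and 0.159 FPKM in muscle. Over embryonic heart its log2 fold change was 3.31 ± 0.92 (limma adjusted p = 0.0339), with an adjusted p of 0.110 without adult heart replicate 2, 0.10 without adult heart replicate 1, 0.0966 and 0.0954 without embryonic heart replicates 0 and 1, and 0.0554 without adult muscle replicate 2. TCONS_00066072 and TCONS_00022872 belong to loci with overlapping members and are described with them.

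TCONS_00018397 (chr13:23310197-23314504, 3 exons) was called for adult heart against muscle alone and was the member with the highest single adult heart value. It had 4.24, 8.84, and 2.54 FPKM in adult heart, 0.199, 2.11, and 1.02 FPKM in embryonic heart, and 0.158, 0.419, and 0.105 FPKM in muscle. Each adult heart sample was above each sample of the other tissue types, with wide spread in both hearts. Adult heart had a log2 fold change of 3.95 ± 0.77 over muscle (limma adjusted p = 0.00613) and 2.37 ± 0.77 over embryonic heart (limma adjusted p = 0.0590), the second short of the threshold. Embryonic heart over muscle, at 1.58 ± 0.77, had a limma adjusted p of 0.159.

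Embryonic heart exceeded both adult tissues in 4 members, where 4.8% of all transcripts tested were called so, and the calls of these members held in every fit with a sample left out. Of these, TCONS_00053197 and TCONS_00095710 were on the cardiac-specific list, for which low muscle values were a condition. The largest difference was that of TCONS_00053197 (chr21:38720529-38726055, 3 exons). It had values below 0.001, 0.650, and 0.466 FPKM in adult heart, 13.1, 16.1, and 14.5 FPKM in embryonic heart, and values below 0.001, 0.498, and below 0.001 FPKM in muscle. Every embryonic heart sample was more than an order of magnitude above every other sample. On the log2 scale, the fold change was -5.38 ± 0.89 for adult over embryonic heart (limma adjusted p = 0.00355) and 6.33 ± 0.89 for embryonic heart over muscle (limma adjusted p = 0.000773), and the ratio of mean FPKM of embryonic to adult heart was 39.0.

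TCONS_00010761 (chr10:45562516-45567273, 3 exons) was present in every sample. It had 4.59, 4.41, and 3.85 FPKM in adult heart, 19.3, 14.1, and 18.5 FPKM in embryonic heart, and 3.66, 2.97, and 3.13 FPKM in muscle. The 2 adult tissues were close, at a log2 fold change of 0.39 ± 0.19 (limma adjusted p = 0.198), and embryonic heart stood above both. The log2 fold change was -1.98 ± 0.19 for adult over embryonic heart (limma adjusted p = 0.000260) and 2.37 ± 0.19 for embryonic heart over muscle (limma adjusted p = 3.31e-05).

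TCONS_00095710 (chr8:23237699-23239399, 5 exons) had 0.204, 0.162, and 0.542 FPKM in adult heart, 2.76, 3.5, and 3.40 FPKM in embryonic heart, and 0, 0, and 0.132 FPKM in muscle. On the log2 scale, its fold change was -3.15 ± 0.50 for adult over embryonic heart (limma adjusted p = 0.00293) and 4.64 ± 0.50 for embryonic heart over muscle (limma adjusted p = 0.000171). TCONS_00030709 (chr16:24064638-24066459, 6 exons) had 0.224, 0.265, and 0.560 FPKM in adult heart, 1.42, 1.59, and 1.36 FPKM in embryonic heart, and 0.527, 0.316, and 0.337 FPKM in muscle. Both showed 3 embryonic heart samples close to each other and above all 6 adult samples. For TCONS_00030709 the log2 fold change was -1.86 ± 0.38 for adult over embryonic heart (limma adjusted p = 0.00957) and 1.68 ± 0.38 for embryonic heart over muscle (limma adjusted p = 0.00968).

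Both hearts exceeded muscle for 3 members, TCONS_00047215, TCONS_00066728, and TCONS_00098671, where 4.09% of all transcripts tested were called so. All but TCONS_00066728 were on the cardiac-specific list, for which low muscle values were a condition. TCONS_00066728 (chr25:18796641-18802294, 3 exons) had 0.565, 0.772, and 0.678 FPKM in adult heart, 1.05, 1.68, and 1.18 FPKM in embryonic heart, and 0.178, 0.0882, and 0.275 FPKM in muscle. The 3 tissue types did not overlap, with embryonic heart the highest. Relative to muscle, the log2 fold change was 1.51 ± 0.38 for adult heart (limma adjusted p = 0.0209) and 2.36 ± 0.38 for embryonic heart (limma adjusted p = 0.00165). The call of TCONS_00066728 for adult heart was lost without adult heart replicate 1 (adjusted p = 0.0748), adult heart replicate 2 (0.0642), or adult muscle replicate 1 (0.0592), or with a pseudocount of 1 (0.0675).

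**Figure D4:**
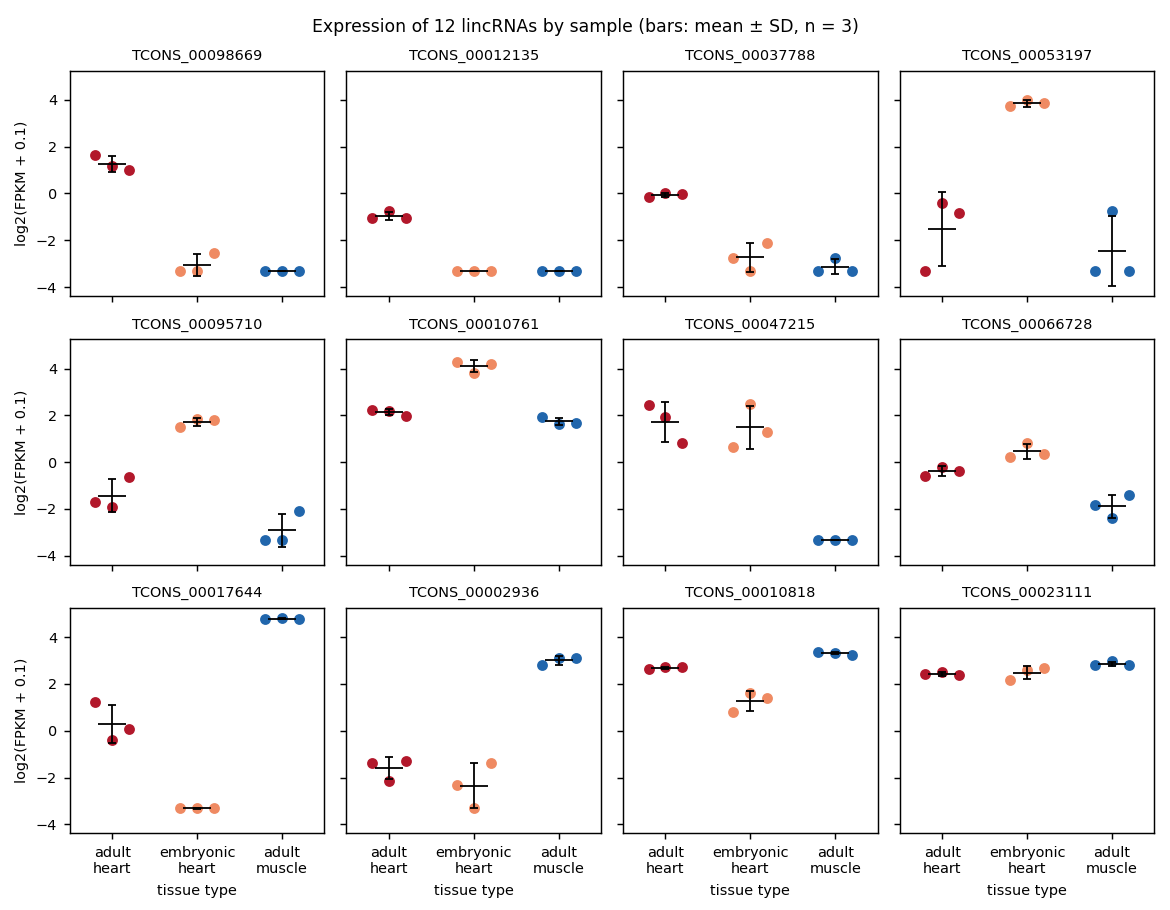
Log2(FPKM + 0.1) of 12 lincRNAs (panels) in each sample of adult heart, embryonic heart, and adult muscle, with the mean and SD of the 3 samples on that scale. The panels show members high in adult heart (TCONS_00098669, TCONS_00012135, TCONS_00037788), in embryonic heart (TCONS_00053197, TCONS_00095710, TCONS_00010761), in both hearts (TCONS_00047215, TCONS_00066728), in muscle (TCONS_00017644, TCONS_00002936), in both adult tissues (TCONS_00010818), and a member called in no comparison (TCONS_00023111).

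Muscle exceeded both hearts in 4 members, where 8.68% of all transcripts tested were called so, and each of the 4 was on a heart list. TCONS_00002936 (chr1:1317208-1318719, 3 exons) had 0.288, 0.129, and 0.311 FPKM in adult heart, 0.0988, less than 0.001, and 0.288 FPKM in embryonic heart, and 6.88, 8.50, and 8.56 FPKM in muscle. Relative to muscle, the log2 fold change was -4.60 ± 0.51 for adult heart (limma adjusted p = 0.000269) and -5.35 ± 0.51 for embryonic heart (limma adjusted p = 8.24e-05). Every muscle sample was above every heart sample, and the mean in muscle was 32.9 times that in adult heart.

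TCONS_00028123 (chr16:1685467-1687533, 4 exons) had 0.199, 0.119, and 0.0327 FPKM in adult heart, 0, 0.604, and 0.506 FPKM in embryonic heart, and 1.88, 3.03, and 2.19 FPKM in muscle. TCONS_00061496 (chr23:15609576-15738957, 3 exons) had 0.229, 0.0906, and 0.30 FPKM in adult heart, 0.386, 0, and 0 FPKM in embryonic heart, and 3.33, 1.73, and 1.53 FPKM in muscle. In both, every muscle sample was above every heart sample. For TCONS_00028123, the log2 fold changes over muscle were -3.56 ± 0.74 for adult heart (limma adjusted p = 0.00858) and -2.79 ± 0.74 for embryonic heart (0.0196), the second lost without adult muscle replicate 1 (0.0671) or 2 (0.0545). With a pseudocount of 0.01 both calls of TCONS_00028123 were lost, at limma adjusted p = 0.0709 for adult heart and 0.0804 for embryonic heart. Those of TCONS_00061496 were -2.89 ± 0.69 for adult heart (limma adjusted p = 0.0161) and -3.68 ± 0.69 for embryonic heart (0.00356), the first lost without adult heart replicate 1 (0.0621) or adult muscle replicate 0 (0.0617) or with a pseudocount of 0.01 (0.128).

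The fourth was TCONS_00017644 (chr13:731052-733766, 3 exons), which had the highest mean of all members in any tissue type. It had 2.22, 0.671, and 0.952 FPKM in adult heart, 0.00266, less than 0.001, and less than 0.001 FPKM in embryonic heart, and 27.7, 27.9, and 27.1 FPKM in muscle. No 2 tissue types overlapped, and the muscle samples differed by less than the spread in adult heart. The log2 fold change was 3.61 ± 0.39 for adult over embryonic heart (limma adjusted p = 0.000427), -4.49 ± 0.39 for adult heart over muscle (limma adjusted p = 6.36e-05), and -8.09 ± 0.39 for embryonic heart over muscle (limma adjusted p = 1.63e-06). It was the only member called in all 3 comparisons other than TCONS_00098671. TCONS_00017644 overlaps TCONS_00017643, and adult and embryonic heart overlapped in the sum of these 2, which is described with their locus.

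In 9 members, TCONS_00017644 among them, both adult tissues exceeded embryonic heart, where 5.77% of all transcripts tested were called so. All but TCONS_00010818 and TCONS_00027738 were on the adult heart list alone, for which low embryonic heart values were a condition. TCONS_00010818 (chr10:46493358-46500125, 5 exons, 3654 nt) was present in every sample. It had 6.12, 6.46, and 6.53 FPKM in adult heart, 1.64, 2.98, and 2.52 FPKM in embryonic heart, and 10.2, 10.02, and 9.47 FPKM in muscle. The adult heart mean was 6.37 ± 0.22 FPKM (SD, n = 3) and the embryonic heart mean 2.38 ± 0.68 FPKM, with muscle at 9.88 ± 0.36 FPKM. The log2 fold change was 1.42 ± 0.23 for adult over embryonic heart (limma adjusted p = 0.00306) and -2.05 ± 0.23 for embryonic heart over muscle (limma adjusted p = 0.000204), while adult heart over muscle, at -0.63 ± 0.23, had a limma adjusted p of 0.0863.

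TCONS_00027738 (chr15:46206178-46211260, 3 exons) had 3.88, 1.36, and 2.16 FPKM in adult heart, 0.507, 0.599, and 0 FPKM in embryonic heart, and 8.92, 9.31, and 12.04 FPKM in muscle. The samples formed 3 separate ranges. Embryonic heart over muscle gave a log2 fold change of -4.86 ± 0.71 (limma adjusted p = 0.000970) and adult over embryonic heart 2.76 ± 0.71 (limma adjusted p = 0.0252), the second lost without adult heart replicate 0 (0.0806) or 2 (0.0660). TCONS_00044942 (chr2:51942805-51943967, 3 exons) had 0.407, 0.779, and 0.890 FPKM in adult heart, was listed at 0 in all embryonic heart samples, and had 0.425, 1.08, and 0.607 FPKM in muscle. The 2 adult tissues overlapped for TCONS_00044942, and the limma adjusted p against embryonic heart was 0.00275 for adult heart and 0.00140 for muscle.

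TCONS_00044836 (chr2:48553585-48554682, 3 exons) had 0.480, 0.990, and 1.08 FPKM in adult heart, 0, 0.273, and 0 FPKM in embryonic heart, and 3.59, 1.10, and 2.33 FPKM in muscle. Embryonic heart over muscle gave a log2 fold change of -3.83 ± 0.65 (limma adjusted p = 0.00212) and adult over embryonic heart 2.55 ± 0.65 (limma adjusted p = 0.0237), and without adult heart replicate 1 the second adjusted p was 0.0820, without adult heart replicate 2 it was 0.0798, and without embryonic heart replicates 0 and 2 it was 0.0678 and 0.0629. Named after their values were seen, the other members of this pattern were TCONS_00010130, TCONS_00011137, TCONS_00041900, and TCONS_00066144. In embryonic heart, TCONS_00011137 and TCONS_00041900 were listed at 0 in every sample, and TCONS_00010130 and TCONS_00066144 reached at most 0.0170 and 0.0213 FPKM. In adult heart, their lowest samples were 0.114 FPKM for TCONS_00011137, 0.201 FPKM for TCONS_00041900, 0.226 FPKM for TCONS_00010130, and 0.261 FPKM for TCONS_00066144. In all 4, the adult heart samples were therefore above the embryonic ones, and each of the 4 lost a call in some fits with a sample left out. With a pseudocount of 1, these 4 and TCONS_00044836 lost the call for adult against embryonic heart. The limma adjusted p was then 0.0827 for TCONS_00010130, 0.258 for TCONS_00011137, 0.132 for TCONS_00041900, 0.0533 for TCONS_00066144, and 0.112 for TCONS_00044836. Against muscle, TCONS_00010130 (0.195) and TCONS_00066144 (0.0843) then also lost the call for embryonic heart. For adult against embryonic heart, the limma adjusted p of TCONS_00011137 was 0.0474 and was above 0.05 without any sample other than adult muscle replicate 0 (0.0520 to 0.116), that of TCONS_00041900 was 0.0168 and became 0.0601 without adult heart replicate 2, and that of TCONS_00066144 was 0.0195 and became 0.0518 without adult heart replicate 0 and 0.0689 without adult heart replicate 1. For embryonic heart against muscle, that of TCONS_00010130 was 0.0228 and was lost without embryonic heart replicate 0 or 1 or adult muscle replicate 0 or 2 (0.0546 to 0.0786), and that of TCONS_00066144 was 0.0295 and was lost without any embryonic heart sample or adult muscle replicate 0 or 2 (0.0530 to 0.0957).

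At the other end, 30 members were called in no comparison, counting TCONS_00082245, which was not tested. The most abundant of these was TCONS_00023111 (chr14:17229008-17270818, 3 exons), with 5.22, 5.69, and 5.10 FPKM in adult heart, 4.43, 6.04, and 6.25 FPKM in embryonic heart, and 6.87, 7.71, and 7.01 FPKM in muscle. Its log2 fold change was -0.05 ± 0.19 for adult over embryonic heart (limma adjusted p = 0.903), -0.42 ± 0.19 for adult heart over muscle (0.149), and -0.38 ± 0.19 for embryonic heart over muscle (0.168). All 3 muscle samples of TCONS_00023111 lay above all 6 heart samples. TCONS_00029686 (chr16:49786242-49794086, 4 exons) had 2.09, 0.656, and 1.85 FPKM in adult heart, 2.06, 3.58, and 2.51 FPKM in embryonic heart, and 3.53, 1.62, and 1.99 FPKM in muscle. TCONS_00023111 had narrow and TCONS_00029686 wide ranges, and a limma adjusted p above the threshold does not show that their levels were equal.

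The longest transcripts, TCONS_00062301 (chr23:32665795-32675243) and TCONS_00071084 (chr3:56765015-56772177), were also not called. TCONS_00062301 had 0.106, 0.844, and 0.344 FPKM in adult heart, 0.00618, 0.0471, and 0.00996 FPKM in embryonic heart, and 0.251, 0.0837, and 0.203 FPKM in muscle. Its adult heart samples lay above the embryonic ones at a log2 fold change of 1.88 ± 0.59 (limma adjusted p = 0.0540). TCONS_00062301 overlaps TCONS_00062300, a cardiac lincRNA outside the 70. The latter had 0.0684, 1.30, and 0.310 FPKM in adult heart and less than 0.001 FPKM in each embryonic heart sample. TCONS_00071084 was steady in adult heart, at 0.309, 0.310, and 0.239 FPKM, and varied in embryonic heart, at 0.751, less than 0.001, and 0.0401 FPKM. It overlaps TCONS_00071085 and TCONS_00071086, also outside the 70. TCONS_00071085 had 1.88, 3.24, and 1.93 FPKM in adult heart and less than 0.001, 0.307, and 0.102 FPKM in embryonic heart. TCONS_00071086 had 0.972, 1.91, and 2.26 FPKM in adult heart and 0.184, 0.613, and 0.429 FPKM in embryonic heart. The shortest, TCONS_00021305 (chr14:21400-22477), had 0.963, less than 0.001, and 0.996 FPKM in embryonic heart, and it rested on 5.57 estimated fragments in total. TCONS_00004762 (chr1:55994715-55996594), the member with the lowest highest mean after TCONS_00082245, had 0.0613, 0.0481, and 0.402 FPKM in adult heart and 0, 0.310, and 0.158 FPKM in embryonic heart.

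By exon number, 15 of the 44 tested members with 3 exons were higher in adult than in embryonic heart, as were 3 of the 12 with 4 exons and 5 of the 13 with 5 or more. The median log2 fold change of adult over embryonic heart was 1.34, 0.43, and 1.25 in these classes. Against muscle, adult heart was higher for 9, 1, and 5 members, and embryonic heart was lower for 10, 5, and 1. By length, 3 of 16 members under 500 nt, 11 of 32 between 500 and 1500 nt, and 9 of 21 tested members over 1500 nt were higher in adult than in embryonic heart. Of all transcripts tested, 12.2% were called higher in adult than in embryonic heart. The shares were 9.6% for higher in adult heart than in muscle and 17.3% for lower in embryonic heart than in muscle. The classes are small, members of 1 locus may share exons, and a longer transcript of the same FPKM has more fragments behind it. Differences between these classes were not tested. Of the 23 members higher in adult than in embryonic heart, 20 were on the adult heart list alone, for which low embryonic heart values were a condition. Low muscle values were likewise a condition of the cardiac-specific list. The shares by class are thus not independent of the listing.

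Of the 16 members in the 6 loci with overlapping members, 7 of 15 tested were higher in adult than in embryonic heart, as were 14 of the 46 that overlapped no cardiac lincRNA and 2 of the 8 that overlapped only a cardiac lincRNA outside the 70, where 12.2% of all transcripts tested were called. The difference between these classes was not tested, and the listing bears on these shares as on those by exon number and length. Overlap was taken from the listed starts and ends, without strand or exon positions, so that shared exons were not checked. Where transcripts share exons, the division of fragments between them is an estimate. The sum over a locus is then less dependent on it than each value. These sums hold members only, and cardiac lincRNAs outside the 70 also overlap the loci on chromosomes 5, 14, and 25. The sums of those loci thus still depend in part on the division. For each locus, sums and shares of the sum were compared by an exact permutation test, two-sided, for which 3 samples against 3 cannot give a p below 0.10. Of 48 such tests, none had a Benjamini-Hochberg adjusted p below 0.20.

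On chromosome 13, TCONS_00017643 and TCONS_00017644 share both ends (chr13:731052-733766) and differ by little in length, 2508 and 2561 nt. TCONS_00017644 made up 73.0%, 46.7%, and 69.8% of their sum in adult heart, 0.15%, 0%, and 0.0825% in embryonic heart, and 95.9%, 85.5%, and 82.9% in muscle. The shares thus did not overlap between tissue types (exact permutation p = 0.10 in each comparison, the smallest possible). In adult heart replicate 1, TCONS_00017643 held the larger share, at 53.3%, so that neither transcript dominated adult heart throughout. TCONS_00017643 itself had 0.817, 0.766, and 0.412 FPKM in adult heart, 1.78, 1.33, and 1.18 FPKM in embryonic heart, and 1.17, 4.73, and 5.57 FPKM in muscle. Its log2 fold change for adult heart over muscle was -2.14 ± 0.55 (limma adjusted p = 0.0238), lost without adult heart replicate 1 (0.0564), adult heart replicate 2 (0.0833), adult muscle replicate 1 (0.0858), or adult muscle replicate 2 (0.0855). The sum was 1.94 ± 0.94 FPKM in adult heart, 1.43 ± 0.31 FPKM in embryonic heart, and 31.4 ± 2.2 FPKM in muscle (SD, n = 3). Adult and embryonic heart samples overlapped in the sum (exact permutation p = 0.50), while muscle lay above both. The part of the division of fragments in the call of TCONS_00017644 for adult over embryonic heart was not tested.

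On chromosome 8, the sum of TCONS_00098669, TCONS_00098670, and TCONS_00098671 was 9.75, 5.62, and 6.53 FPKM in adult heart and 1.08, 0.160, and 0.556 FPKM in embryonic heart. The shortest of the 3, TCONS_00098671, made up 57.4%, 25.6%, and 44.6% of the sum in adult heart, and nearly all of it in embryonic heart replicates 0 and 1 and 87.0% in replicate 2. The 2 longer transcripts were thus nearly confined to adult heart among these samples, and the shares did not overlap (exact permutation p = 0.10, the smallest possible). At the embryonic level of the sum, the longer ones would have few fragments, and their absence there is not shown.

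On chromosome 2, TCONS_00047214 and TCONS_00047215 (chr2:57158018-57172211) share a start, and their ends lie within a few bases. TCONS_00047215, with 4 exons, had 5.30, 3.69, and 1.64 FPKM in adult heart, 1.49, 5.47, and 2.36 FPKM in embryonic heart, and 0, 0, and less than 0.001 FPKM in muscle. The hearts overlapped and lay above muscle, at a log2 fold change of 5.04 ± 0.55 for adult heart (limma adjusted p = 0.000251) and 4.80 ± 0.55 for embryonic heart (limma adjusted p = 0.000240), both of which depend on the pseudocount. TCONS_00047214, with 3 exons, had 2.02, less than 0.001, and 0.413 FPKM in adult heart, less than 0.001, less than 0.001, and 2.25 FPKM in embryonic heart, and 0, 0, and 0.175 FPKM in muscle. High and near-0 values thus stood side by side in both hearts for TCONS_00047214, and it was not called.

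On chromosome 25, TCONS_00066072 (chr25:2108117-2126170) and TCONS_00066075 (chr25:2108165-2126170) are 1904 and 1853 nt long. TCONS_00066072 had 0.488, 2.44, and 1.45 FPKM in adult heart, less than 0.001, 0.0697, and less than 0.001 FPKM in embryonic heart, and 1.47, less than 0.001, and less than 0.001 FPKM in muscle. TCONS_00066075 had 0.724, less than 0.001, and less than 0.001 FPKM in adult heart, 0.457, 0.399, and 0.0871 FPKM in embryonic heart, and 0.336, 2.86, and 2.17 FPKM in muscle. Which of the 2 was the higher changed between replicates of adult heart and of muscle. Their sum was 1.70 ± 0.65 FPKM in adult heart, 0.338 ± 0.217 FPKM in embryonic heart, and 2.28 ± 0.54 FPKM in muscle. The call of TCONS_00066072 as higher in adult than in embryonic heart (log2 fold change 3.47 ± 1.07, limma adjusted p = 0.0493) was lost when any of 8 of the 9 samples was left out, and its highest adjusted p was 0.158, without adult heart replicate 1. The one sample whose omission kept the call was adult muscle replicate 0, in which TCONS_00066072 was the higher of the 2. The call was also lost with a pseudocount of 1 (limma adjusted p = 0.0753) or 0.01 (0.0662). TCONS_00066072 was on the adult heart list alone, for which low embryonic heart values were a condition.

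On chromosome 14, 4 members lie in 1 locus, with ends close to each other and starts that differ widely. TCONS_00022864 (chr14:4876674-5125679, 6 exons, 484 nt) had 2.5, 2.33, and 2.18 FPKM in adult heart, 1.15, 0, and 1.74 FPKM in embryonic heart, and 2.98, 1.81, and 4.94 FPKM in muscle. It was the most abundant in each sample other than embryonic heart replicate 1, in which all 4 were listed at 0. TCONS_00022872 (chr14:5038145-5125664) had 0.302, 1.88, and 0.696 FPKM in adult heart, less than 0.001 FPKM in each embryonic heart sample, and 0.297, 0.345, and less than 0.001 FPKM in muscle. Its log2 fold change for adult over embryonic heart was 3.10 ± 0.74 (limma adjusted p = 0.0186), which became 0.0607 without adult heart replicate 1 and 0.0508 without adult heart replicate 2. TCONS_00022873 (chr14:5066212-5125789) had 0.0913, 0.408, and 0.192 FPKM in adult heart and less than 0.001 FPKM in each embryonic heart sample, with a limma adjusted p of 0.0440 that was lost without any sample other than adult heart replicate 0 or adult muscle replicate 2 (0.0514 to 0.119). With a pseudocount of 1, the calls of TCONS_00022872 and TCONS_00022873 were lost, at limma adjusted p = 0.0503 and 0.104. Both were on the adult heart list alone, for which low embryonic heart values were a condition. TCONS_00022871 (chr14:4946855-5125664) reached 0.345 FPKM in adult heart replicate 1 and was not called. The sum over the 4 was 3.73 ± 1.09 FPKM in adult heart, 1.01 ± 0.95 FPKM in embryonic heart, and 3.62 ± 1.45 FPKM in muscle.

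On chromosome 5, TCONS_00082245 (chr5:72081255-72084403), TCONS_00082246 (chr5:72081609-72084403), and TCONS_00085071 (chr5:72079673-72084374) overlap and were each low. Their sum was 0.703 ± 0.068 FPKM in adult heart, 0.123 ± 0.079 FPKM in embryonic heart, and 0.0953 ± 0.0905 FPKM in muscle. TCONS_00085071 had 0.360, 0.414, and 0.488 FPKM in adult heart, 0.202, less than 0.001, and less than 0.001 FPKM in embryonic heart, and 0.10, less than 0.001, and 0.181 FPKM in muscle. Adult heart samples were above the rest, with a limma adjusted p of 0.0557 against embryonic heart and 0.0986 against muscle for TCONS_00085071. TCONS_00082246 had 0.265, 0.219, and 0.129 FPKM in adult heart and at most 0.00420 FPKM in muscle, with a limma adjusted p of 0.0251 that was lost without adult heart replicate 0 (0.0618) or 1 (0.0626) or without any of the muscle samples (at most 0.0630). Low muscle values were a condition of the cardiac-specific list, on which TCONS_00082246 was. TCONS_00082245 had less than 0.001, 0.120, and 0.112 FPKM in adult heart and less than 0.001 FPKM in every other sample, which placed it just above the listing threshold in 2 samples.

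**Figure D5:**
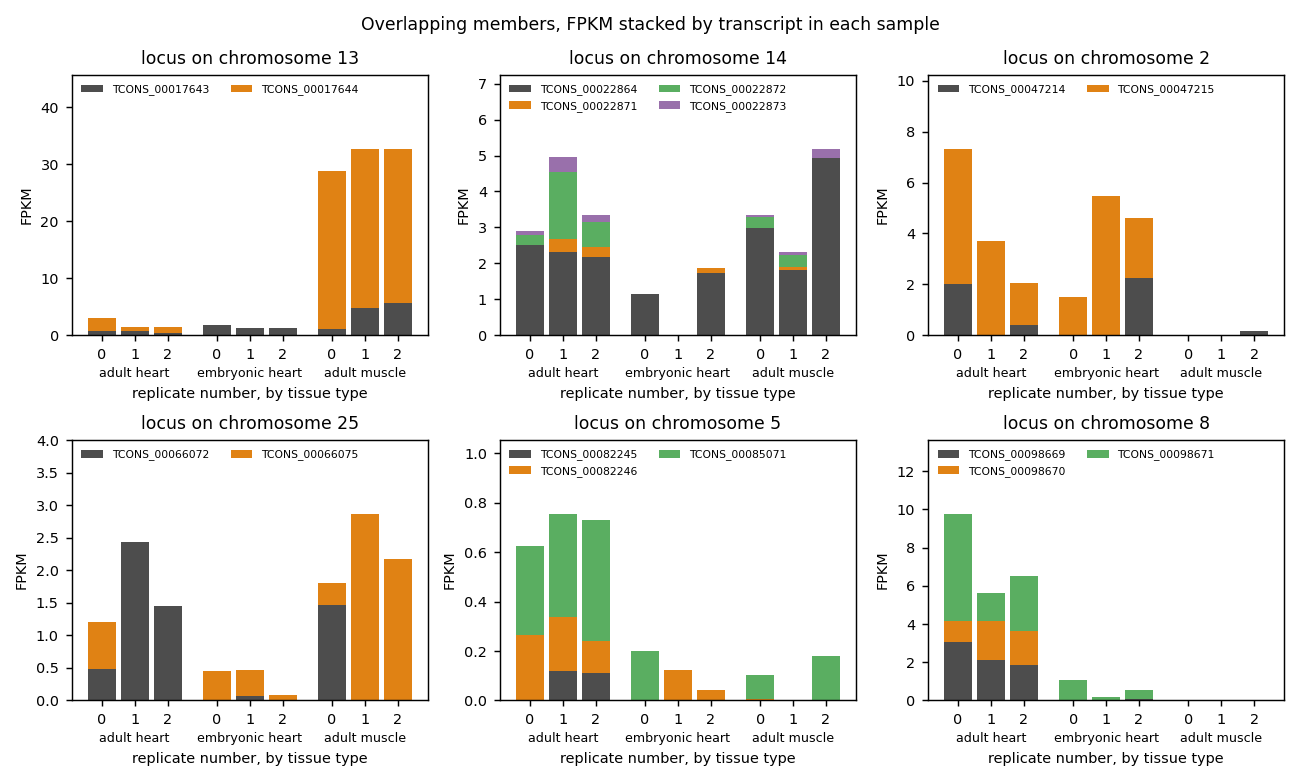
FPKM of the overlapping members, stacked by transcript, in each sample (bars, replicates 0 to 2 of adult heart, embryonic heart, and adult muscle) for the 6 loci with 2 or more members. On chromosome 13 the muscle bars reach between 28.8 and 32.7 FPKM and are mostly TCONS_00017644, on chromosome 8 the muscle samples are at 0, and on chromosome 25 the transcript that fills the bar changes between replicates.

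With 6 exons, the 3 members were TCONS_00022864, TCONS_00030709, and TCONS_00031200 (chr16:34106223-34113908, 4878 nt). TCONS_00031200 had 0.159, 0.184, and 0.0985 FPKM in adult heart, 0, 0, and 0.227 FPKM in embryonic heart, and 0, 2.2, and 2.25 FPKM in muscle. Adult muscle replicate 0 thus stood apart from the other muscle samples, and the log2 fold change for embryonic heart over muscle, -2.46 ± 1.16, had a limma adjusted p of 0.15. The 3 members with 6 exons shared no pattern, since 1 was highest in embryonic heart and 2 in muscle.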

How the data were processed

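Tissue was homogenized and RNA extracted with TRIzol, and the authors sequenced it as paired 50-base reads. Per the labels and the study's methods, the authors aligned reads to Zv9 with TopHat2 2.0.12, assembled transcripts with Cufflinks 2.2.1, and calculated with Cuffnorm the deposited FPKM values of 103079 transcripts in each sample, normalized for transcript length and library size. Fragments shared by overlapping transcripts are divided by likelihood, which can place a value at or near 0. The lists of cardiac lincRNAs with exon numbers, lengths, and positions are the study's supplementary tables, of which no expression value or fold change was used.

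Columns were assigned to tissue types by their sample titles. Tested were transcripts whose mean FPKM passed 0.1 in any tissue type, as log2(FPKM + 0.1) with limma 3.58.1 in R 4.3.3, in one fit of all 9 samples with an intensity trend, two-sided, with Benjamini-Hochberg adjustment over the 69118 transcripts. Where the lower mean was 0, the ratio of 2 counted as passed. Fold changes are on the log2(FPKM + 0.1) scale and understate the change of low transcripts. FPKM is not a count, and no count test was used. The fit was tested on simulated data. Other calculations used Python 3.11.15, numpy 2.4.6, pandas 2.3.3, scipy 1.17.1, and matplotlib 3.10.9.

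The members, lists, and tests were chosen with earlier results of these data known. Named were, in each comparison, up to 6 called members with the largest increase and 6 with the largest decrease and no overlap between samples, the 6 highest means of each tissue type, the 2 lowest highest means, the overlapping members, those with 6 or more exons, and the extremes of length and span, and others where a count or a pattern required it. Alternatives were other pseudocounts, filters, scalings and expression thresholds, leaving out each sample, a replicate block, no trend, fitting only 2 tissue types, and requiring an adjusted p below 0.01. The depth of each sample could only be estimated and its precision is limited to counting error. Strand, neighbouring genes, and sequences were not analysed here.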

Additional observations from a re-analysis of the deposited data

How the results depend on the processing

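No called member changed direction under any alternative run. Of the 70 calls over the 3 comparisons, 39 were kept under every alternative in which the member could be tested, and 42 were kept with each sample left out. With a filter at a mean of 1 FPKM, adult heart was higher than embryonic heart for 10 members and higher than muscle for 7. Requiring an adjusted p below 0.01, adult heart was higher than embryonic heart for 10 members, higher than muscle for 9, and lower than muscle for 3, and embryonic heart was lower than muscle for 9. For members lower in adult heart than in muscle, the count was 3 with a pseudocount of 0.01 and 8 with only these 2 tissue types fitted. A pseudocount of 0.01 also ended the calls of TCONS_00027738, TCONS_00089207, TCONS_00098671, and TCONS_00102538 for adult against embryonic heart. It likewise ended those of TCONS_00100278 and TCONS_00102538 for adult heart against muscle, and of TCONS_00014051 and TCONS_00056313 for embryonic heart against muscle. With 1 sample left out, the counts of members higher and lower ranged from 12 to 21 and from 4 to 6 in adult against embryonic heart, from 10 to 15 and from 3 to 7 in adult heart against muscle, and from 7 to 8 and from 11 to 15 in embryonic heart against muscle. The cause of these changes in count was not tested. A mean above 0.5 FPKM was reached by 35 members in adult heart, 19 in embryonic heart, and 29 in muscle, and a mean above 1 FPKM by 17, 13, and 19. With a sample left out, the number above 0.1 FPKM was 63 to 65 in adult heart, 38 to 42 in embryonic heart, and 46 to 48 in muscle.

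Quantile normalization changed the calls over all transcripts in adult against embryonic heart to 6791 higher and 6184 lower, against 8423 and 4996 without it. Same-numbered samples of different tissue types did not deviate together, with Pearson's r between -0.02 and 0.07 across transcripts, and samples did not correlate best with their own number throughout, so the numbers were not taken as pairs. With a replicate block, 19 members were higher and 4 lower in adult than in embryonic heart, 14 and 5 in adult heart against muscle, and 7 and 15 in embryonic heart against muscle, and 62 of the 70 calls were kept. Members with few estimated fragments, such as the 15 with fewer than 30, are limited by depth. Those of the 15 that were called were TCONS_00011137, TCONS_00014051, TCONS_00022873, TCONS_00056301, TCONS_00064518, and TCONS_00102538.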

Other observations

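Some members that were not called had a single sample far from the rest of its tissue type. TCONS_00031803 (chr16:49973882-49977720, 5 exons) had 1.02, 0.116, and 0 FPKM in adult heart, 0, 0.137, and 1.07 FPKM in embryonic heart, and 8.21, 0.787, and 0.743 FPKM in muscle. TCONS_00008102 (chr10:15064834-15068970, 4 exons) had at most 0.0464 FPKM in adult heart, 0.126, 0.0943, and 0.324 FPKM in embryonic heart, and 1.73, 0.0768, and 0.407 FPKM in muscle. Adult muscle replicate 0 was thus the highest of the 9 samples for both. TCONS_00034479 (chr17:12252592-12260292, 3 exons) had 0, 0.259, and 0.217 FPKM in adult heart, 0, 3.43, and 2.2 FPKM in embryonic heart, and 0.156, 0, and 0 FPKM in muscle, with embryonic heart replicate 0 at 0 and the other embryonic samples the highest of all. The 3 were chosen after their values were seen.

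When the cardiac lincRNAs outside the 70 that overlap a locus were added to its sum, an alternative chosen after seeing the data, the locus of TCONS_00082245 on chromosome 5 had 1.57, 1.80, and 1.32 FPKM in adult heart, 0.457, 0.672, and 0.689 FPKM in embryonic heart, and 0.105, 0.213, and 0.181 FPKM in muscle. The 3 tissue types did not overlap in that sum. In the locus of TCONS_00022864 on chromosome 14, the sum was 4.02, 5.82, and 4.56 FPKM in adult heart. It was 1.37, 0, and 2.02 FPKM in embryonic heart and 3.99, 2.76, and 5.29 FPKM in muscle. The locus of TCONS_00066072 on chromosome 25 had 1.25, 4.73, and 2.08 FPKM in adult heart, 0.457, 0.469, and 0.0871 FPKM in embryonic heart, and 2.30, 3.28, and 2.63 FPKM in muscle, and both adult tissues lay above embryonic heart.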
